A study of Homo sapiens with 2 samples.

Results

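The 4 HOX gene clusters of the human genome were examined in a map of chromatin contacts made at sites bound by METTL3. The clusters hold 38 HOX genes considered here: 10 in HOXA, 10 in HOXB, 9 in HOXC and 9 in HOXD. Interactions were taken when either of their anchors overlapped a cluster, given in hg19 as chr7:27120000-27250000 for HOXA, chr17:46600000-46810000 for HOXB, chr12:54320000-54450000 for HOXC and chr2:176940000-177060000 for HOXD. This gave 9 of the 12221 interactions of the control library and 229 of the 150390 interactions of the senescent library.

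Both libraries were made from IMR90 cells, an established line of fibroblasts from human embryonic lung, labelled as wild type and grown at 2% oxygen. Per the labels, the senescent cells had been driven into senescence by oncogenic H-RAS, in its G12V form and fused to the estrogen receptor (ER:RAS) so that it can be induced. The inducing agent, its dose and the time of harvest are not given in the labels, nor is it said whether the control cells carry the uninduced fusion. There was 1 library per group, so no difference between control and senescent cells has a replicate check and none was tested. The intervals given are at a level of 95% and cover counting error only. The tables hold DNA contacts and no expression, so the labelled cell type was not checked against marker genes.

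HiChIP is a proximity ligation assay: chromatin is fixed, cut, religated so that touching fragments are joined, and enriched with an antibody, here against METTL3, the catalytic subunit of the enzyme that places N6-methyladenosine on RNA. Each sequenced molecule that joins 2 sites is a paired-end tag (PET), and each interaction is a pair of anchors with the number of PETs that join them. HOX genes encode homeodomain transcription factors that set positional identity along the body axis. They stand in order within each cluster, from paralogue group 1 at one end to group 13 at the other, and genes near the group 13 end are used in more posterior and more distal parts of the body. Adult and embryonic fibroblasts keep a HOX expression pattern that reflects their place of origin, and the silent portions of the clusters are textbook targets of Polycomb repression.

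All 38 genes were found in the RefSeq gene table (GRCh38.p14), which was used for names and order only. By increasing coordinate, HOXA runs from HOXA2 to HOXA13 and HOXB from HOXB1 to HOXB13, while HOXC runs from HOXC13 to HOXC4 and HOXD from HOXD13 to HOXD1. The neighbours of the clusters are paralogous to each other as well. SKAP2, SNX10, CBX3, HNRNPA2B1 and NFE2L3 lie beyond the HOXA2 end. SKAP1, SNX11, CBX1 and NFE2L1 lie beyond the HOXB1 end. CBX5, HNRNPA1 and NFE2 lie beyond the HOXC4 end, and HNRNPA3 and NFE2L2 beyond the HOXD1 end. CBX3, CBX1 and CBX5 encode the heterochromatin protein HP1 in its gamma, beta and alpha forms. EVX1 lies beyond HOXA13 and EVX2 beyond HOXD13, both of which encode homeodomain proteins. No anchor was assigned to a gene, since no gene annotation of hg19 was used here. Positions are therefore given by coordinate and by the nearer end of the cluster.

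The clusters also carry microRNA genes, whose mature sequences are shown because they tie the clusters to each other. The seed, bases 2 to 8 from the 5′ end, is in capitals, and the sequences are from RefSeq (GRCh38.p14).
hsa-miR-196b-5p: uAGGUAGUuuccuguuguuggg
hsa-miR-196a-5p: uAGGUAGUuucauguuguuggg
hsa-miR-10a-5p: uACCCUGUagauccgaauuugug
hsa-miR-615-3p: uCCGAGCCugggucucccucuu
The 196 family has the same seed in 3 of the clusters: MIR196B lies in HOXA, MIR196A1 in HOXB and MIR196A2 in HOXC. The mature 5p sequences differ by A12C, with the base of miR-196a first and positions counted from the 5′ end. Members of this family are known to repress HOX messenger RNAs, HOXB8 among them. MIR10A lies in HOXB, MIR10B in HOXD and MIR615 in HOXC.

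Per the labels' protocols, chromatin was cut with MboI, which recognises GATC, so a contact can be read only through such sites. RefSeq promoters (GRCh38.p14, 250 bases before to 50 after the start of the gene) matched 20 of the 38 genes and gave 26 distinct sequences. GATC, a palindrome that reads the same on both strands, was found in 11 of the 26 (42.3%), against 14597 of 34943 (41.8%) among all promoters of this length. By cluster it was found in 7 of 16 promoters of HOXA, 1 of 1 of HOXB, 1 of 1 of HOXC and 2 of 8 of HOXD. An end gene of each cluster is shown, 5′ to 3′ on its own strand, with GATC in capitals, because contacts are described from the ends of the clusters.
HOXA13, chr7:27200042-27200341, - strand: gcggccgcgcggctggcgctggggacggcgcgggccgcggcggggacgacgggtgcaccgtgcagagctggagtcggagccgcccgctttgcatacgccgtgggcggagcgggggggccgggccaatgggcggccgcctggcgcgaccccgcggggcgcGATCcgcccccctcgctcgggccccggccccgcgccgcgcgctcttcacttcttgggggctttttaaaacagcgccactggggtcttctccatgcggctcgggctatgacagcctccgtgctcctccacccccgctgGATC
HOXB1, chr17:48530962-48531261, - strand: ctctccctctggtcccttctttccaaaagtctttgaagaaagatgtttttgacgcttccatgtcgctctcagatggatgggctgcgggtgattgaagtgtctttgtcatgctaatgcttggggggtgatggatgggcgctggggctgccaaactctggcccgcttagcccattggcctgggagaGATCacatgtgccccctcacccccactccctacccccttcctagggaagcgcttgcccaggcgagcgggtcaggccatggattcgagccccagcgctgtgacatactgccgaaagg
HOXC4, chr12:54016638-54016937, + strand: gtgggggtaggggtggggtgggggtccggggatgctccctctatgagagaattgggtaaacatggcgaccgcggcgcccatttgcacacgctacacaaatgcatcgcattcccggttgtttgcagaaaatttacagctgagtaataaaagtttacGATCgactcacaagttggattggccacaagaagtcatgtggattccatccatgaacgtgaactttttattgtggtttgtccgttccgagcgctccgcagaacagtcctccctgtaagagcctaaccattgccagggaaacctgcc
HOXD13, chr2:176092471-176092770, + strand: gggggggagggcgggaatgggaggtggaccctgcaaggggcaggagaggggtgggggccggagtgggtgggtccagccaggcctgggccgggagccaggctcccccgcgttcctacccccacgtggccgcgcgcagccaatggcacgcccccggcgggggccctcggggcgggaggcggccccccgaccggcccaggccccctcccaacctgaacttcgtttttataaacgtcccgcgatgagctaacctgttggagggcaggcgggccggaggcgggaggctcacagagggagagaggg
The HOXA13 window holds the site at bases 160 and 297 of the 300, the HOXB1 window at base 185 and the HOXC4 window at base 156. The HOXD13 window holds none, which says only that these letters are not in this window. HOXC4 and HOXC5 share the same promoter sequence in RefSeq. MIR615 of HOXC lies at a higher coordinate (chr12:54033967-54033988), so the HOXC4 window is not the outermost part of that cluster.

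The tables differ in size. In control cells 14373 PETs were listed over 11845 anchors and in senescent cells 184165 PETs over 72944 anchors, which is 12.8 times as many PETs and 6.16 times as many anchors. Anchor pairs appear only with at least 1 PET, so the totals do not give the depth of sequencing, and no upper limit can be set for an absent pair. The share of interactions with at least 2 PETs was 13.3% in control and 14.4% in senescent cells over all chromosomes. Median anchor width was 2708 bp and 2927 bp. Anchors over 10 kb numbered 32 and 1758.

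HOXA and HOXB were listed in both libraries, and HOXC and HOXD in the senescent library alone. In control cells HOXA had 6 PETs and HOXB 5, and no PET was listed at HOXC or HOXD. In senescent cells HOXA had 117 PETs, HOXB 73, HOXC 70 and HOXD 52. HOXA had the most PETs in both libraries, although the control counts of HOXA and HOXB differ by 1 PET. Each library sums over many cells, so more cells with a contact and more contacts per cell cannot be told apart.

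Scaled to 100000 listed PETs, HOXA had 41.7 (15.3 to 90.9) in control and 63.5 (52.5 to 76.1) in senescent cells. The ratio of the scaled values, senescent over control, was 1.52 (0.679 to 4.23), an interval that includes 1. Counting each interaction once, whatever its PETs, the HOXA ratio was 0.935, so its direction turned. HOXB had 34.8 (11.3 to 81.2) and 39.6 (31.1 to 49.8), with a ratio of 1.14 (0.467 to 3.61). The direction in HOXB turned as well: against the PETs of chromosome 17 alone the ratio was 0.400, and over interactions with at least 2 PETs it was 0.443. HOXC had 38.0 (29.6 to 48.0) and HOXD 28.2 (21.1 to 37.0) in senescent cells, and with no control PET no fold is given for either. Summed over the clusters, 11 control PETs stood against 312 senescent PETs, or 0.0765% (0.0382 to 0.137) and 0.169% (0.151 to 0.189) of all listed PETs, a scaled ratio of 2.21 (1.22 to 4.48). HOXC and HOXD, with none in control, bring the pooled ratio above those of HOXA and HOXB.

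**Figure D1:**
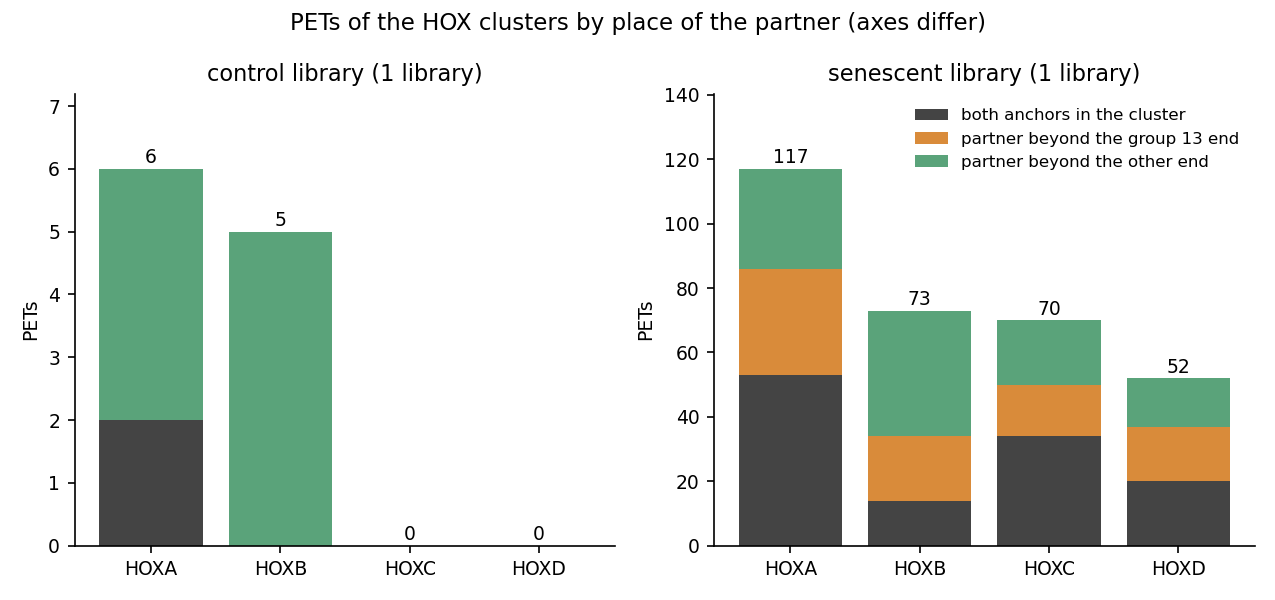
PETs of each HOX cluster in the control library (left axis panel) and the senescent library (right panel), stacked by the place of the partner anchor; the panels have different vertical scales, and each bar is 1 library with no error bar. HOXA and HOXB had 6 and 5 control PETs, HOXC and HOXD had 0, and the senescent bars run from 117 for HOXA down to 52 for HOXD.

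Such a pattern was common in these tables. Among 5270 windows of 130 kb tiled over the genome with at least 20 PETs in all, 3295 (62.5%) were at least 2-fold higher in the senescent library after scaling or had no control PET. HOXC and HOXD met this rule and HOXA and HOXB did not. At least 2-fold higher in the control library were 930 windows (17.6%), and no HOX cluster was among these. Of 1533 windows with 50 to 120 senescent PETs, the range that holds the counts of all 4 clusters, 842 (54.9%) had no control PET. A cluster with no control PET is therefore near the background of the tables and is no result about HOXC or HOXD. The median scaled ratio over the 2607 windows listed in both libraries was 0.826.

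The clusters ranked differently against windows of their own length in the senescent library. Only windows that held a contact in the library concerned were counted. HOXA was among the densest: 164 of 14209 windows of 130 kb (1.15%) had as many PETs or more, and the median window had 11. HOXC, over the same length, was matched by 849 windows (5.98%). HOXB was matched by 1019 of 9573 windows of 210 kb (10.6%, median 15 PETs) and HOXD by 1521 of 15143 windows of 120 kb (10.04%, median 10 PETs). Fewer windows held a contact in control cells, so the ranks of the libraries rest on different sets of windows. There 1131 of 5395 windows (20.96%, median 2 PETs) had as many PETs as HOXA or more. For HOXB it was 1344 of 4271 (31.5%, median 3 PETs). Per 100 kb of cluster, senescent PETs came to 90.0 for HOXA, 53.8 for HOXC, 43.3 for HOXD and 34.8 for HOXB, so that HOXB, the longest interval, was the sparsest.

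The number of anchors around the clusters also differed between the libraries. Over all chromosomes the senescent library had 6.16 times as many anchors as the control library. The counts around the clusters were not set against other regions. Within 1 Mb to either side, the control library had 9 anchors around HOXB (5 beyond the HOXB1 end and 4 beyond HOXB13) and 9 around HOXA (7 beyond HOXA2 and 2 beyond HOXA13). It had 1 anchor within 1 Mb of HOXD and 0 within 1 Mb of HOXC. In the senescent library HOXC had 70 anchors within 1 Mb beyond the HOXC13 end and 30 beyond the HOXC4 end, and HOXB had 63 and 67 beyond its HOXB1 and HOXB13 ends. HOXA had 17 and 33 beyond HOXA2 and HOXA13, and HOXD stood in the emptiest surroundings, with 9 beyond HOXD13 and 13 beyond HOXD1.

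HOXA was almost filled by anchors in senescent cells. Its 9 anchors covered 84.3% of the interval, against 9.91% under 3 anchors in control cells. The 14 anchors of HOXD covered 57.95%, the 14 of HOXC 49.3% and the 12 of HOXB 25.9%. The longest stretch with no anchor was 69.8 kb in HOXB (chr17:46615468-46685314), on the side of the HOXB1 end. It was 13.2 kb in HOXC, 7.60 kb in HOXA and 6.79 kb in HOXD.

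A single HOXA anchor was the widest of the whole senescent library. It ran from chr7:27134513-27197775, which is 63.263 kb, and the next in width were 52.7 kb on chromosome 16 (chr16:2128633-2181288) and 41.9 kb on chromosome 17 (chr17:48249557-48291503, outside HOXB). The widest anchor of HOXB was 15.2 kb and ranked 431 of 72944, that of HOXC 11.4 kb (rank 1169) and that of HOXD 10.6 kb (rank 1460). In control cells the widest HOXA anchor was 6.86 kb (rank 229 of 11845), where the widest of the library was 17.4 kb. Median widths in senescent cells were 7051 bp in HOXA, 3874 bp in HOXD, 3501 bp in HOXC and 3188 bp in HOXB, all above the 2927 bp of the whole library.

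Anchor width moved with the number of partners. The 63.263-kb anchor had 29 partner anchors and 57 PETs, and 30 anchors of the library had more partners. The 145 other anchors over 20 kb had a median of 19 partners (at most 38), while 31217 anchors of 2 to 3 kb had a median of 3. Of the 29 partners, 7 were in HOXA, 15 beyond the HOXA2 end and 7 beyond the HOXA13 end. It carried 29 of the 69 HOXA interactions (42.0%) and 57 of the 117 PETs (48.7%). Without it HOXA had 40 interactions and 60 PETs, or 32.6 per 100000, which lies between HOXD and HOXC.

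**Figure D2:**
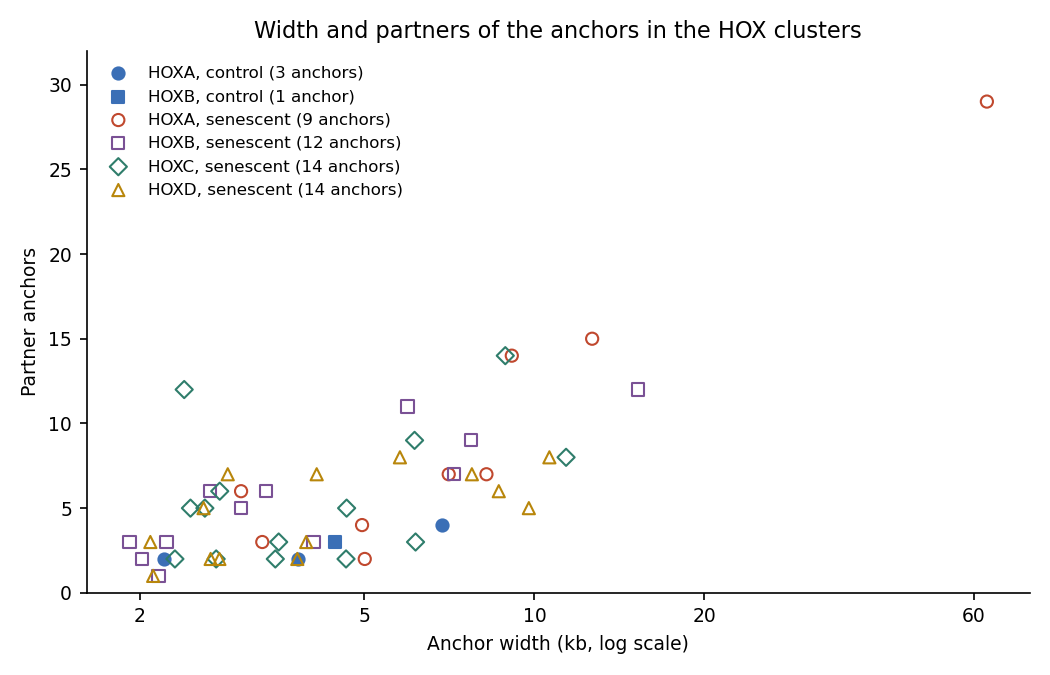
Width of every anchor in the HOX clusters (horizontal, kb, log scale) against its number of partner anchors (vertical), with filled marks for the control library and open marks for the senescent library; each mark is 1 anchor. The HOXA anchor of 63.263 kb with 29 partners stands apart, and a HOXC anchor of 2.40 kb with 12 partners is the narrowest with more than 7.

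**Figure D3:**
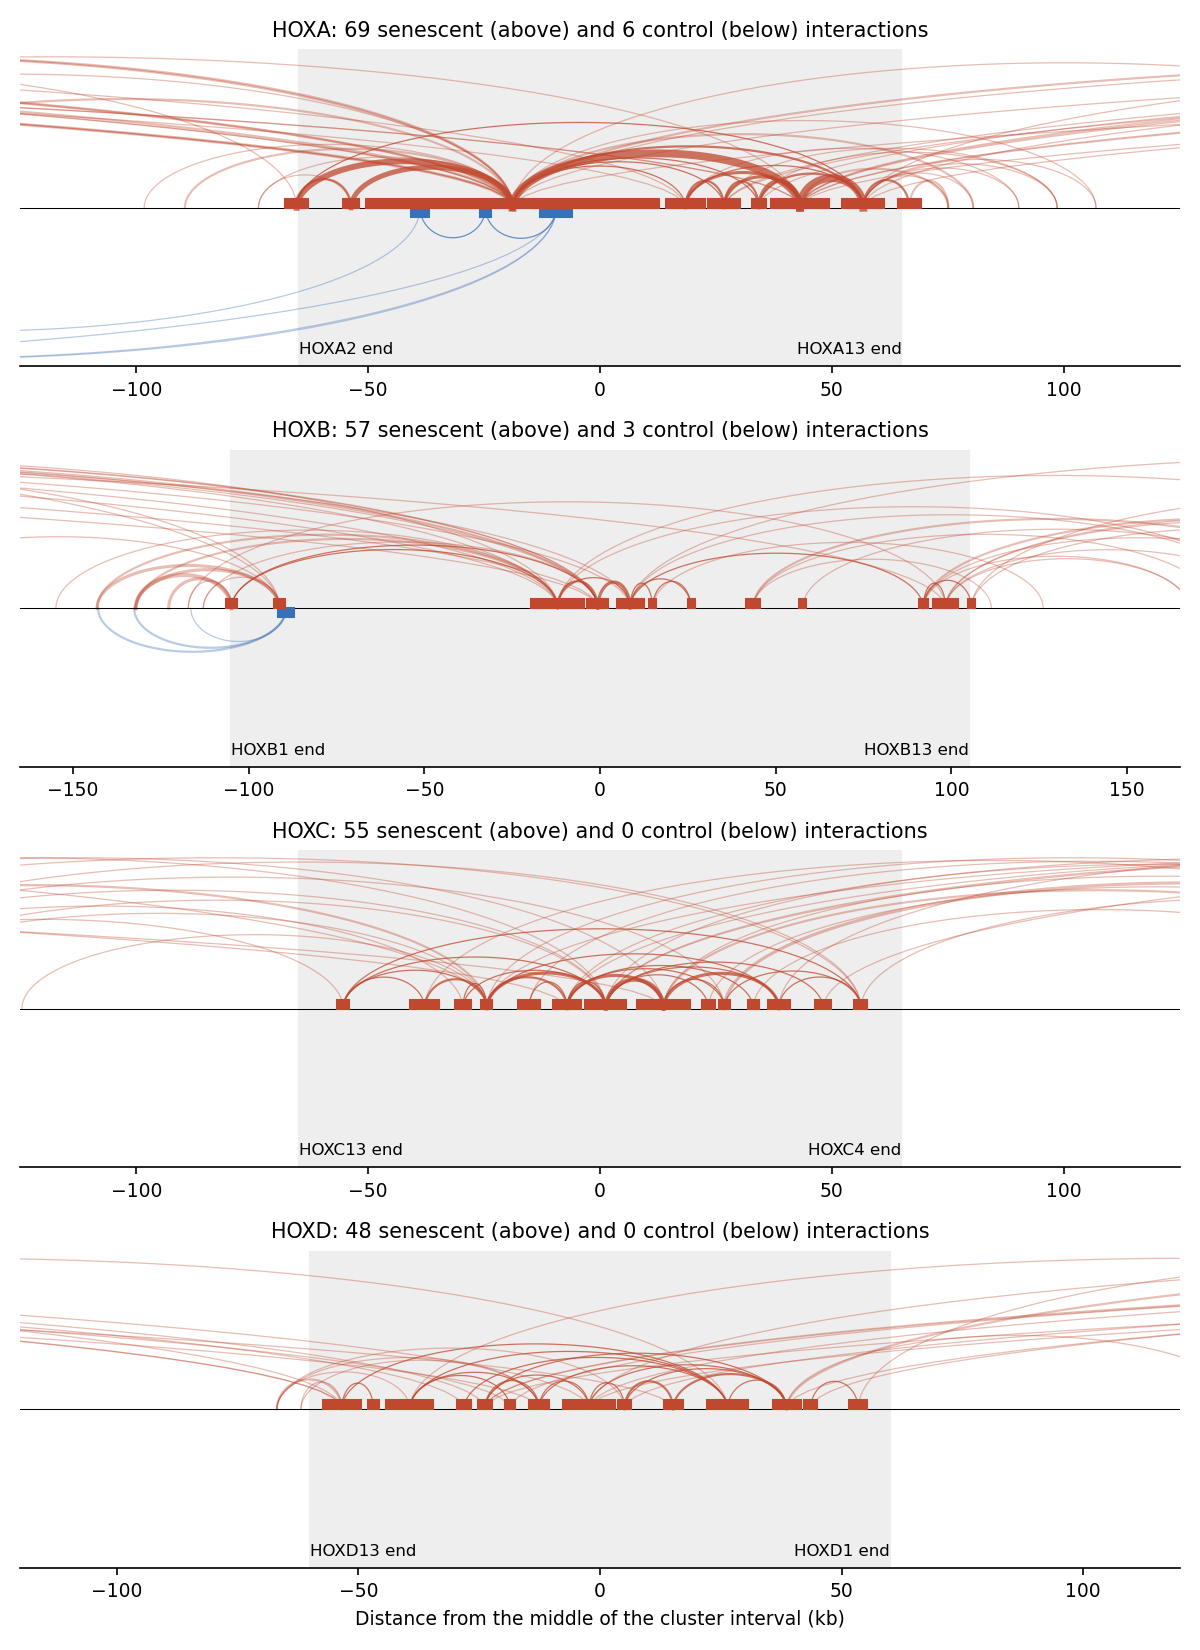
Interactions of each cluster against distance from the middle of the cluster interval in kb. The senescent library is red, above the line, and the control library is blue, below the line. Boxes are anchors and shading is the interval. Thicker arcs have more PETs, and darker arcs have both anchors in the cluster, whatever their PETs. HOXA arcs converge on the wide anchor and on the HOXA13 end, HOXB arcs leave from the middle and from both ends, and HOXC and HOXD arcs are spread over 14 anchors each.

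Contacts with both anchors in the same cluster made up 70 of the 229 senescent interactions, 30.6% (24.7 to 37.0). The share was 41.8% (23 of 55, 28.7 to 55.9) in HOXC, 37.5% (18 of 48, 23.95 to 52.6) in HOXD, 26.1% (18 of 69, 16.3 to 38.1) in HOXA and 19.3% (11 of 57, 10.05 to 31.9) in HOXB. Neighbours in this order have intervals that overlap, and so do HOXC and HOXB at the ends of it. By PETs HOXA was more inward than by interactions, since 53 of its 117 PETs (45.3%) joined anchors of HOXA. In control cells 2 of 9 interactions (22.2%, 2.81 to 60.01) were inside a cluster, both in HOXA.

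Repeated contacts were most frequent in HOXA. At least 2 PETs were found for 25 of its 69 interactions, 36.2% (24.99 to 48.7). The share was 17.5% (10 of 57, 8.75 to 29.9) in HOXB, 16.4% (9 of 55, 7.77 to 28.8) in HOXC and 8.33% (4 of 48, 2.32 to 19.98) in HOXD. The HOXA interval lies above that of HOXD and overlaps those of HOXB and HOXC. Among interactions of the 63.263-kb anchor the share was 48.3% (14 of 29), and among the other HOXA interactions 27.5% (11 of 40, 14.6 to 43.9). The mean number of PETs per interaction was 1.70 in HOXA, 1.28 in HOXB, 1.27 in HOXC and 1.08 in HOXD, where the whole library had 1.22.

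The strongest HOXA contacts of senescent cells lay inside the cluster. The wide anchor and chr7:27221791-27234444, an anchor of 12.7 kb toward the HOXA13 end, were joined by 8 PETs over 62.0 kb. The same 12.7-kb anchor was joined by 8 PETs to chr7:27237215-27246333, the next anchor toward HOXA13, over 13.7 kb. At the other end the wide anchor was joined by 6 PETs to chr7:27117136-27122087 and by 5 PETs to chr7:27129687-27132983, over 46.5 and 34.8 kb. No other interaction of any HOX cluster had more than 4 PETs. Next came 4 contacts of 3 PETs each. Of these, 3 lay inside HOXA, where the 12.7-kb anchor met chr7:27199312-27207534, chr7:27208234-27215284 and chr7:27217721-27220744. The other reached outside: chr7:25893306-25898171, 1270 kb away beyond the HOXA2 end, met the wide anchor with 3 PETs and an authors' deposited value of 1.98e-08, a value that falls with distance.

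Positions within HOXA were uneven. Anchors nearer the HOXA13 end had 95 of the 170 PET ends in the cluster (55.9%) on 6 anchors. The HOXA2 side had 75 on 3 anchors, 57 of them on the wide anchor, whose span reaches past the middle of the interval. The 12.7-kb anchor had 15 partners and 36 PETs and its neighbour toward HOXA13 had 14 partners and 24 PETs. Both met more anchors outside HOXA (10 and 8) than inside it (5 and 6).

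HOXB contacts were gathered at 3 places separated by gaps. At the HOXB1 end, chr17:46598613-46601640 and chr17:46612121-46615467 had 10 PETs each, and the latter had 6 partners, all outside the cluster. In the middle, chr17:46685315-46700550 had 12 partners and 15 PETs, chr17:46701389-46707348 had 11 partners and 14 PETs, and chr17:46709710-46717426 had 9 partners and 11 PETs. At the HOXB13 end the anchors at chr17:46795652-46798317 and chr17:46799730-46806935 had 7 PETs each and chr17:46809777-46811695 had 3. Between the middle and the HOXB13 end 4 anchors had 1 to 4 PETs each.

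The strongest HOXB contact joined chr17:46598613-46601640 to chr17:46566298-46579424, outside the cluster and 27.3 kb away, with 4 PETs. Of the next 4, each with 3 PETs, 3 also left the cluster across the HOXB1 end, over 17.9 to 51.9 kb, and 1 lay inside it, between chr17:46701389-46707348 and chr17:46709710-46717426. By the intervals used, the strongest HOXB contacts thus differed in place from those of HOXA. Some of these contacts depend on where an interval ends. The anchors chr17:46598613-46601640 in HOXB and chr7:27117136-27122087 in HOXA both lie across an interval edge. Only 14 of the 73 HOXB PETs (19.2%) stayed in the cluster.

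Of the 5 strongest HOXC contacts, 4 lay inside the cluster and 1 reached outside. The strongest had 4 PETs and joined chr12:54381815-54390694 to chr12:54393029-54404405 over 12.5 kb. Contacts with 3 PETs joined chr12:54359407-54361804 to the former over 25.6 kb and chr12:54374829-54380962 to the latter over 20.8 kb. The latter was also joined by 3 PETs to chr12:54421233-54425882, toward HOXC4, over 24.8 kb. A further contact with 3 PETs left the cluster: chr12:54410577-54413036 met chr12:54607647-54618036 beyond the HOXC4 end over 201 kb, with an authors' deposited value of 4.96e-07. The anchor with the most partners was chr12:54381815-54390694, with 14 partners and 19 PETs. The anchor chr12:54359407-54361804 had 12 partners and 17 PETs in a width of 2.40 kb, more partners than the 11.4-kb anchor of the same cluster, which had 8. Anchors on the HOXC4 side of the middle had 61 of 104 PET ends (58.7%) and those on the HOXC13 side 43.

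HOXD had no contact above 2 PETs. Those with 2 PETs were chr2:177003789-177006383 with chr2:177013175-177017118, the latter with chr2:177035728-177041506, chr2:176942694-176950442 with chr2:176930968-176935254 just beyond the HOXD13 end, and chr2:177035728-177041506 with chr2:177500898-177503480 beyond the HOXD1 end. The 14 HOXD anchors had 1 to 8 partners each: chr2:176992424-177003052 and chr2:177035728-177041506 had 8 each, and 3 anchors on the HOXD13 side had 7 each. Of 72 PET ends, 41 (56.9%) were on the HOXD13 side of the middle. No HOXD anchor had more than 10 PETs, against 57 at most in HOXA, 19 in HOXC and 15 in HOXB.

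Contacts that left the clusters differed in reach. In HOXD, 19 of 30 outside interactions (63.3%, 43.9 to 80.07) spanned more than 500 kb, and in HOXA 27 of 51 (52.9%, 38.5 to 67.07). In HOXB 13 of 46 (28.3%, 15.99 to 43.5) did so, and in HOXC 3 of 32 (9.375%, 1.98 to 25.02). The interval of HOXC lies under those of HOXA and HOXD, and the interval of HOXB lies under that of HOXD. Median outside spans were 1034 kb in HOXD, 614 kb in HOXA, 242 kb in HOXC and 173 kb in HOXB. These shares move with where anchors lie: HOXD and HOXA had 22 and 50 senescent anchors within 1 Mb, and HOXC and HOXB had 100 and 130. What this adds to the difference in reach was not tested.

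**Figure D4:**
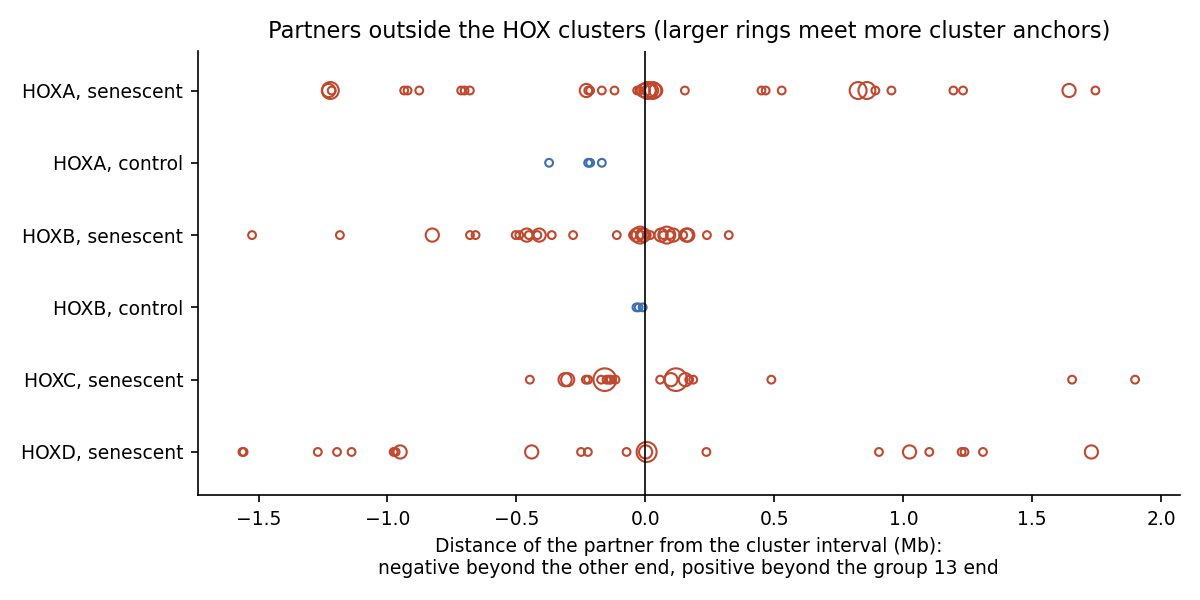
Partner anchors outside each HOX cluster against their distance from the cluster interval in Mb (horizontal; positive beyond the group 13 end, negative beyond the other end), by cluster and library; each ring is 1 partner anchor, and larger rings meet more anchors of the cluster. HOXC partners lie within 0.5 Mb except for 2, whereas HOXA and HOXD partners reach past 1 Mb on both sides.

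The longest contacts of HOXA ended at chr7:28994756-28997689, 1768 kb from the 12.7-kb anchor, and at chr7:28892520-28897074, which met both the wide anchor (1729 kb) and chr7:27237215-27246333 (1653 kb). Those of HOXB ran beyond the HOXB1 end over 1631, 1290 and 1035 kb, the longest to chr17:45072440-45074901. HOXC had 2 contacts beyond 1 Mb, of 1981 and 1713 kb, to chr12:52413549-52421321 and chr12:52663518-52665725 beyond the HOXC13 end. In HOXD, chr2:175197192-175210815 beyond the HOXD13 end met chr2:177013175-177017118 over 1811 kb and chr2:176985331-176989446 over 1783 kb. All of these had 1 PET. HOXD had 17 outside contacts over 1 Mb, HOXA 11, HOXB 3 and HOXC 2.

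Some outside anchors met several anchors of the same cluster. In HOXC, chr12:54607647-54618036 beyond the HOXC4 end met 5 HOXC anchors with 7 PETs, and chr12:54197331-54201710 beyond the HOXC13 end met 5 with 5 PETs. They lie 158 and 118 kb from the cluster. In HOXD, chr2:176930968-176935254 met 4 anchors with 5 PETs at 4.75 kb beyond the HOXD13 end. In HOXB, chr17:46566298-46579424 met 3 anchors with 9 PETs. In HOXA 5 outside anchors met 3 HOXA anchors each. Those close to the HOXA13 end were chr7:27258595-27261576, with 5 PETs at 8.59 kb, and chr7:27278646-27288474, with 3 PETs at 28.6 kb. Of the distant ones, chr7:25893306-25898171 had 5 PETs at 1222 kb beyond HOXA2, and chr7:28074712-28079055 and chr7:28108683-28110795 had 3 PETs each at 825 and 859 kb beyond HOXA13. Meeting several anchors were 12 of 34 outside partners of HOXA, 12 of 32 of HOXB, 6 of 20 of HOXC and 6 of 22 of HOXD.

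Outside interactions in senescent cells went to both sides of every cluster. Toward the group 13 end went 29 of 51 in HOXA, 18 of 46 in HOXB, 15 of 32 in HOXC and 16 of 30 in HOXD. In control cells all 7 outside interactions went the other way, 4 beyond the HOXA2 end and 3 beyond the HOXB1 end. The control anchors lay on that side too: all 3 in HOXA and the 1 in HOXB were nearer the HOXA2 and HOXB1 ends. Few control anchors lay beyond the group 13 ends, giving 12 pairs in HOXA and 6 in HOXB. Control pairs at like distance gave 0.159 and 0.164 joined pairs there. The lack of control contacts toward group 13 is therefore no result about side.

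In HOXA and HOXB, anchors tended to be joined across the end they were nearer to. In HOXB, 24 of 26 outside interactions of anchors nearer the HOXB1 end left across that end, and 16 of 20 of those nearer the HOXB13 end left across theirs. In HOXA the counts were 17 of 24 for the HOXA2 side and 22 of 27 for the HOXA13 side. In HOXD they were 6 of 9 for the HOXD1 side and 13 of 21 for the HOXD13 side. In HOXC they were 11 of 19 for the HOXC4 side and 7 of 13 for the HOXC13 side.

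Since nearby anchors are joined more often everywhere, each count was set against distance. All pairs of senescent anchors 5 kb to 2 Mb apart were sorted by distance, with 20 classes for each factor of 10. The share of pairs joined in each class over the genome gave the number expected from distance. The ratio of joined pairs to that number is 1 where pairs are joined as often as pairs at like distance over the genome. Only anchors with at least 1 partner are listed, so the joined share can be higher where anchors are few. The classes do not take the number of nearby anchors into account. Within 1 Mb, HOXD and HOXA had 22 and 50 senescent anchors, and HOXC and HOXB had 100 and 130. What this adds to the ratios was not tested. Pairs share anchors and are not independent, so the Poisson intervals are too narrow to that extent.

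HOXA pairs were joined more often than pairs at like distance, and this was smaller without the wide anchor. Inside HOXA 18 of 36 pairs were joined, where distance gave 7.91, a ratio of 2.28 (1.35 to 3.60). Without the wide anchor 11 of 28 pairs were joined and the ratio was 1.65 (0.822 to 2.95), an interval that includes 1. For pairs of a HOXA anchor with an outside anchor the ratio was 3.06 (51 of 625, 2.28 to 4.02), and 1.91 (29 of 556, 1.28 to 2.74) without the wide anchor. Width itself was not part of the distance classes.

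Inside the other clusters the ratio was 0.923 (11 of 66 pairs, 0.461 to 1.65) for HOXB, 1.03 (23 of 90, 0.654 to 1.55) for HOXC and 0.833 (18 of 89, 0.494 to 1.32) for HOXD, all with intervals that include 1. HOXC, whose share of inside contacts was the highest, was thus like the genome at these distances. To the outside the ratio was 1.80 (30 of 994, 1.21 to 2.57) for HOXD, 1.12 (46 of 3019, 0.817 to 1.49) for HOXB and 0.986 (32 of 2502, 0.674 to 1.39) for HOXC.

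The difference between the ends remained at like distance in HOXB. Pairs of a HOXB anchor with an outside anchor beyond its nearer end had a ratio of 1.49 (40 of 1607, 1.06 to 2.03), and pairs beyond its farther end 0.418 (6 of 1412, 0.153 to 0.910). Without the HOXB anchors within 10 kb of the middle the values were 1.26 (0.849 to 1.80) and 0.350 (0.0955 to 0.897), intervals that overlap slightly. Without its widest anchor HOXB had 1.29 (0.888 to 1.81) and 0.315 (0.0859 to 0.807). The excess was on the HOXB1 side, where 24 of 436 pairs were joined, a ratio of 3.10 (1.99 to 4.61). The same HOXB1-side anchors had 0.334 (2 of 541, 0.0405 to 1.21) with partners beyond HOXB13. HOXB13-side anchors with partners beyond HOXB13 had a ratio of 0.837 (16 of 1171, 0.478 to 1.36). With partners beyond HOXB1 they had 0.478 (4 of 871, 0.130 to 1.22), so for the HOXB13 side the intervals overlap.

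In the other clusters the intervals for the nearer and farther ends overlapped. HOXA had 3.33 (39 of 349, 2.37 to 4.55) and 2.41 (12 of 276, 1.24 to 4.21), and its HOXA2 side toward partners beyond HOXA2 had 5.38 (17 of 73, 3.14 to 8.62). The wide anchor made 15 of these 17 contacts. Without it the HOXA ratios were 2.18 (24 of 326, 1.39 to 3.24) beyond the nearer end and 1.20 (5 of 230, 0.391 to 2.81) beyond the farther end, where the interval then includes 1. HOXC had 1.03 (0.610 to 1.63) and 0.935 (0.511 to 1.57). HOXD had 1.80 (1.08 to 2.81) and 1.80 (0.898 to 3.22), and its HOXD13 side was joined across the cluster to partners beyond HOXD1 in 8 of 264 pairs, a ratio of 2.82 (1.22 to 5.55). The widest HOXD anchor, chr2:176992424-177003052, which spans the middle of the interval, made 3 of these 8 contacts. Without it the HOXD ratios were 1.82 (1.08 to 2.87) beyond the nearer end and 1.40 (0.602 to 2.75) beyond the farther end. Without the HOXD anchors within 10 kb of the middle the farther end had 1.37 (0.551 to 2.82).

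**Figure D5:**
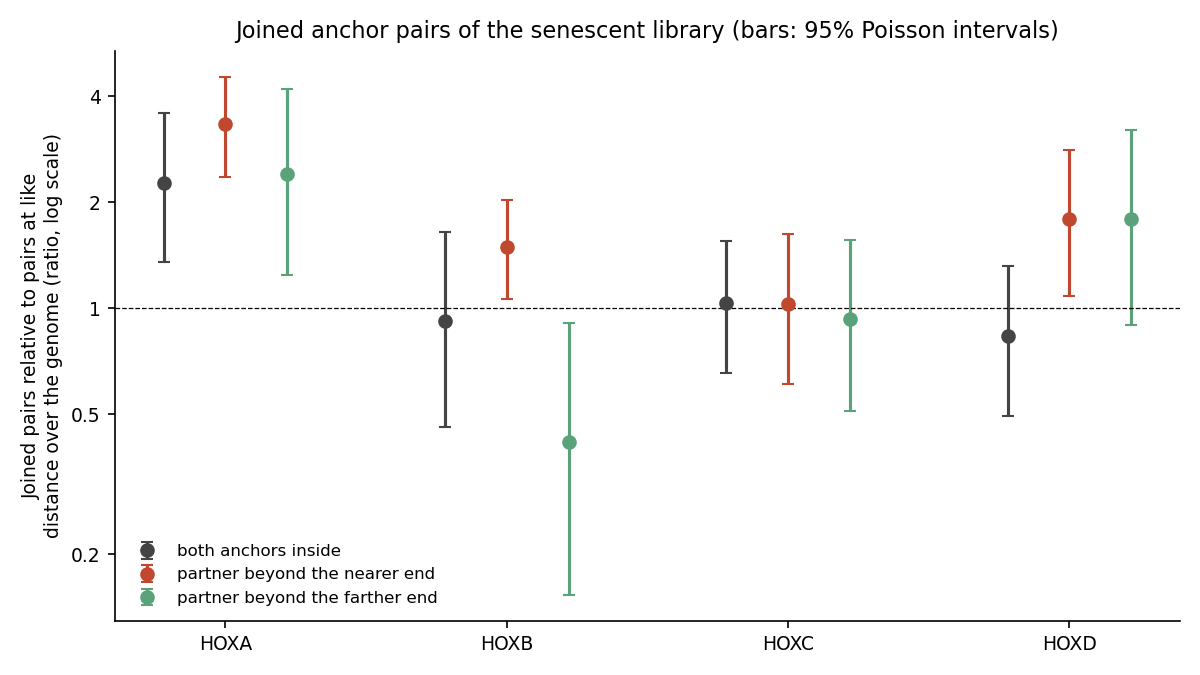
Joined anchor pairs of the senescent library relative to pairs at like distance over the genome (vertical, ratio on a log scale; 1 is dashed), for pairs inside each HOX cluster and for pairs with an outside anchor beyond the nearer or the farther end; points are ratios and bars are 95% Poisson intervals. HOXA stands above 1 in all 3, although without its widest anchor the intervals for inside pairs and for the farther end include 1; HOXB has 1.49 beyond the nearer and 0.418 beyond the farther end, and HOXC is near 1 throughout.

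The control interactions were few enough to be followed singly. In HOXA, chr7:27172110-27178972 was joined to chr7:26742361-26746523, chr7:26895700-26898022 and chr7:26903748-26905755, over 431, 279 and 271 kb. The anchor chr7:27144303-27148117 was joined to chr7:26948918-26951089 over 196 kb. The 2 inside interactions joined chr7:27159213-27161422 to both of these HOXA anchors over 14.1 and 15.2 kb. Each had 1 PET. In HOXB, chr17:46613432-46617864 was joined to chr17:46559058-46565295 and chr17:46571219-46573646 by 2 PETs each and to chr17:46587550-46589555 by 1 PET, over 53.5, 43.2 and 27.1 kb.

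With an overlap of at least 1 bp at both ends, 4 of the 9 control interactions had a counterpart among the 229 senescent interactions. In HOXB the contacts of 53.5 and 43.2 kb had 2 control PETs and 3 senescent PETs each. In HOXA the contact of 279 kb had 1 control and 2 senescent PETs, and that of 196 kb had 1 in each. Both inside interactions of HOXA had their ends within the 63.263-kb senescent anchor, so they could not be listed in the senescent table. The other 3 were not listed there, and 1 of them, at chr7:26742361-26746523, had no senescent anchor at that end. All 3 control anchors of HOXA and the 1 of HOXB overlapped a senescent anchor, which was 1 of 9 senescent anchors in HOXA and 1 of 12 in HOXB.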

How the data were processed

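METTL3 HiChIP was measured in 1 control and 1 senescent library of IMR90 cells. Per the submitters' processing notes, the processing involved HiC-Pro 3.1.0 and hg19. How loops and anchors were called, and how reads were filtered, is not given in the sources used here. For each anchor pair the authors deposited a whole number, read here as the raw count of PETs. They also deposited a value that may be a p-value or a q-value, used here only to order ties and as a filter. Each library has its own anchors, and how wide ones arose is not stated.

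Interactions, PETs, anchors, spans between anchor midpoints and partners were derived in Python 3.11.15 (scipy 1.17.1, pandas 2.3.3, numpy 2.4.6). A contact was inside a cluster when both anchors overlapped it. Shares have exact Clopper-Pearson intervals, PET counts and joined pairs exact Poisson intervals, and ratios of PETs exact conditional binomial intervals. The script for joined pairs was checked on simulated data. Regions named are, per cluster and library, the 5 interactions with the most PETs, the 3 longest, the 3 anchors with the most partners and those in both libraries. The control interactions, the outside anchors meeting several cluster anchors, the widest anchors and anchors named to describe positions were chosen after their values were seen. The members and lists were chosen with earlier results of these data known. The distance comparison and the values without the widest anchor were added after seeing the data. No test between groups was made, with 1 library each. Coordinates are 1-based.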

Additional observations from a re-analysis of the deposited data

How the results depend on the processing

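Of 24 alternatives for the PET ratios and inside shares, 13 moved the value by less than its counting interval and 11 by more. Without scaling, the ratio of PETs was 19.5 for HOXA and 14.6 for HOXB, where all listed PETs had a ratio of 12.8. Scaled to the PETs of the same chromosome, HOXB was at 0.400, and over interactions with at least 2 PETs at 0.443, both below 1 where the main value was above it. Counted once per interaction, HOXA was at 0.935, and scaled to the PETs of the same chromosome it was at 2.14. The senescent share of inside interactions was 38.8% weighted by PETs, 47.9% among interactions with at least 2 PETs, 37.1% with intervals widened by 20 kb and 11.3% among those with a deposited value of at most 0.05, a value that falls with distance. The control share was 0 with at least 2 PETs, 0 with a deposited value of at most 0.05 and 0 without the anchors that the widest senescent anchor overlaps. Of 10 alternatives for joined pairs, HOXA with outside anchors moved, to 1.91 without that anchor. No ratio could be had for HOXC or HOXD under any setting, for HOXA with at least 2 PETs or without the widest anchor, or for HOXB at a deposited value of at most 0.05, since the control count was 0. No paired analysis was possible because each group has 1 library; for the same reason no replicate could be left out. The control counts of 6 and 5 PETs limit every comparison between the libraries.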

Other observations

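Contacts that bridged a cluster, joining outside anchors on either side within 1 Mb of its middle, were counted in the senescent library against pairs at like distance. Across HOXB 31 of 3596 pairs were joined, a ratio of 1.33 (0.903 to 1.89), across HOXC 17 of 1890, a ratio of 1.12 (0.655 to 1.80), and across HOXA 4 of 448, a ratio of 0.932 (0.254 to 2.39). Across HOXD 0 of 72 pairs were joined, where distance gave 1.25 pairs, so that no difference was detectable. All 4 intervals include 1, HOXD's running from 0 to 2.95. Beside the clusters, pairs with both anchors in the same flank, within 1 Mb of the middle, had ratios of 0.663 (0.243 to 1.44) beyond HOXA2 and 0.855 (0.529 to 1.31) beyond HOXA13. Inside HOXA the interval began at 1.35, above that of the HOXA13 flank and overlapping that of the HOXA2 flank; without the widest anchor it began at 0.822 and overlapped both. The flank beyond HOXB13 had 0.795 (105 of 1888, 0.650 to 0.962), the 1 flank of the 8 whose interval lay below 1, and that beyond HOXC4 had 1.18 (61 of 431, 0.900 to 1.51).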
